A study of Homo sapiens with 6 samples.

Results

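Peaks of N4-acetylcytidine (ac4C) on protein-coding genes were described in human colorectal cancer cells. They were those labelled exon, and not coding sequence (CDS) or untranslated region (UTR), in the deposited annotation. They were taken from the deposited peak list of the pooled acRIP-seq libraries by 2 columns, the position class exon and the host type protein_coding. This gave 2197 peaks on 1301 host genes, out of 15622 pooled peaks on 8370 hosts. They made up 14.9% of the 14697 pooled peaks on coding genes, beside 4850 peaks in the CDS, 7399 in the 3' UTR and 227 in the 5' UTR, with 20 at stop and 4 at start codons. A further 863 exon peaks lay on other kinds of host and were not included.

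The cells were SW480 and DLD-1, epithelial lines from colorectal tumours, wild type and untreated in all libraries. In each line, total RNA (Input), RNA bound by the acetyltransferase NAT10 (RIP) and fragmented RNA pulled down with an antibody to ac4C (acRIP) were sequenced, which gave 6 groups with 1 library each. There were no replicates, so no difference between lines or classes was tested, and each interval given here covers the counting of peaks only. Peaks of 1 gene and 1 library share their source and are not independent. The depth of the acRIP libraries is unknown.

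Acetylation of cytidine at N4 is written into RNA by NAT10, the enzyme known for this mark in ribosomal and transfer RNA and described in messenger RNA as well. In acRIP-seq the mark is read as a stretch of RNA enriched over Input, so a peak is as wide as the fragments that cover it and does not give the acetylated base. The pooled list also counts in each peak the sites of a 12-base pattern, CNNCNNCNNCNN, in which 4 Cs stand 3 bases apart, a pattern used to describe ac4C sites in human RNA.

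The libraries did not pair by their labels. Across 16278 coding genes, log2(FPKM + 1) in the RIP library labelled SW480 had a Pearson r of 0.872 with the Input labelled SW480 and 0.945 with the Input labelled DLD-1. For the RIP library labelled DLD-1 it was 0.857 with its own Input and 0.951 with the other. FPKM is a count of fragments corrected for transcript length and library size. The Inputs of the table deposited with the acRIP-seq data, whose values were read as FPKM, correlated best with the Input of the same label (0.962 and 0.957). Line names below are those of the labels. Markers of epithelium differed in level in the acRIP-table Inputs labelled SW480 and DLD-1. EPCAM had 214 and 65.0 FPKM and CDX2 21.9 and 6.59, while VIL1 was low at 2.89 and 1.3. PTPRC, a leukocyte marker, was listed at 0 in both.

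To show what the motif looks like in these peaks, the listed sites were read where they fell into a RefSeq promoter window of GRCh38.p14 (250 bases before to 50 after a gene start). This covered 36 sites of 18 peaks, of which 30 sites were written out with their flanking bases, so the sites shown are those near some gene's start and not a sample of all. For RPS25 and the 8 peaks of highest fold among those written out, the 5′-most of the written-out sites is given. It need not be the 5′-most of all listed sites of the peak. Each is shown as 30 bases, 5′ to 3′ on the strand of the peak, with the 4 Cs of the pattern in capitals.
MT2A, chr16:56608573-56608602, plus strand: cgctgcactCcaCcaCgcCtcctccaagtc
FAAP20, chr1:2189643-2189672, minus strand: ggacacgctCtcCccCgcCagcagccccgc
RCE1, chr11:66843233-66843262, plus strand: gagccgggtCccCttCcgCaagcgcccacc
CSNK2B, chr6:31669861-31669890, plus strand: atggcctacCagCtgCagCtccaagccgcc
NDUFAF8, chr17:81239685-81239714, plus strand: gggcgcgggCccCttCccCccttcccagcc
NDUFS3, chr11:47579053-47579082, plus strand: ctgtctttcCgtCcgCtgCctagtctgcat
MSTO1, chr1:155612846-155612875, plus strand: cactctgccCttCcaCtgCagtgccatcct
RPL27, chr17:42999950-42999979, plus strand: ctcagatcgCccCtaCagCcatgctctggt
RPS25, chr11:119018446-119018475, minus strand: acttcctgtCttCcgCctCaggctagaggg

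These hosts differ in function. MT2A is a metallothionein that binds zinc and copper, FAAP20 belongs to the Fanconi anaemia core complex, RCE1 is a protease of prenylated proteins and CSNK2B is the regulatory subunit of a casein kinase. NDUFS3 is a subunit of respiratory complex I and NDUFAF8 a factor for its assembly, MSTO1 acts in mitochondrial shape, and RPL27 and RPS25 are ribosomal proteins. A window could belong to a neighbouring gene, as for CSNK2B, whose site lay at -106 bases from the start of LY6G5B. The printed sites of RCE1, NDUFAF8 and RPS25 lay upstream of the RefSeq start of their own host, at -199, -220 and -123 bases. The pattern is common: it was found on the gene strand of 74.9% of 35116 promoter windows of 300 bases, and in 25.7% of their 50 transcribed bases, so a match describes the sequence and does not mark a site of acetylation.

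The first question was what kind of genes carried the exon label. The label went with the gene rather than with single peaks. Of the 1301 hosts, 1141 (87.7%) had exon peaks and no other pooled peak. Among the 713 hosts with at least 2 pooled peaks of any class, 553 (77.6%, 95% Wilson interval 74.4 to 80.5) had exon peaks alone. The same share was 17.4% (15.9 to 19.0) for the 2296 such hosts with a CDS peak and 32.2% (30.5 to 33.9) for the 2874 with a 3' UTR peak. Exon hosts also carried a CDS peak in 92 cases, a 3' UTR peak in 104 and a 5' UTR peak in 7.

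The lists of the lines repeated this labelling. They come from the same libraries as the pooled list, so they are not separate evidence for it. On the genes with exon peaks alone in the pooled list, 1327 of 1345 SW480 peaks (98.7%) and 1758 of 1786 DLD-1 peaks (98.4%) were exon peaks. What the authors' annotation required for the label is not given in the sources used here, so whether these peaks lie in coding or untranslated bases cannot be told from the class.

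Most hosts had few exon peaks. There were 727 hosts with 1, 352 with 2 and 161 with 3, and the 574 hosts with at least 2 held 1470 of the 2197 peaks. EIF4G2, a translation factor related to the scaffold EIF4G1, carried the most, with 8 peaks on chromosome 11 between 10797110 and 10807540. EWSR1 (an RNA-binding protein fused in Ewing sarcoma), HNRNPH1 (a splicing factor), SEPTIN7 (a cytoskeletal GTPase) and SSRP1 (a subunit of the histone chaperone FACT) carried 7 each. The symbol of SEPTIN7 is held as a date in the deposited list.

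Along these 5 genes the strongest peak was near the 3' end in 4 of them. In EWSR1 the fold of acRIP over Input, as the authors computed it, was 129 in the peak centred 130 bases from the RefSeq 3' end and between 2.27 and 27.2 in the other 6. In HNRNPH1 it was 178 at 315 bases from the 3' end and at most 32.6 elsewhere, in SSRP1 537 at 558 bases and at most 153 elsewhere, and in EIF4G2 79.8 at 974 bases and at most 18.1 elsewhere. SEPTIN7 differed, with its highest fold of 18.9 at 90.4% of the gene span and 11010 bases before the end. Of the 36 peaks on these genes, 26 were in the DLD-1 list alone, 2 in the SW480 list alone and 8 in both, where all exon peaks had 37.1%, 19.3% and 39.8%. The 7 peaks of SEPTIN7 held 0 motif sites where the 7 of SSRP1 held 12.

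Host families fixed by symbol took part to different extents. Over all coding genes with a pooled peak, 17.1% (1301 of 7612) had an exon peak, and each share below is read beside it. Among ribosomal protein genes it was 40 of 72 (55.6%), with 84 peaks and a median fold of 13.4. Their peaks of highest fold were on RPL24 (239), RPL9 (96.0) and RPS7 (89.2), all found in both line lists, and 67 of the 84 peaks were in both, where 39.8% of all exon peaks and 32.1% of all pooled peaks were.

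Lists of genes in RNA splicing, unwinding and translation followed. Of the splicing regulators named HNRNP and SRSF, 10 of 31 (32.3%) had an exon peak, led by HNRNPH1 at a fold of 178 and HNRNPL at 131. Of the DDX and DHX helicases it was 14 of 41 (34.1%), with DDX5 highest at 206, and of the EIF translation initiation factors 12 of 48 (25.0%), with EIF3B at 175 and EIF3M at 95.3. Of the 36 helicase peaks 31 were in the DLD-1 list and 10 in the SW480 list. Of the 37 EIF peaks it was 32 and 15, where all exon peaks had 76.9% in DLD-1 and 59.1% in SW480. EIF4G2 alone held 8 of the EIF peaks, 7 of them in the DLD-1 list only. Median lengths were 196 bases for helicase peaks and 239 for EIF peaks, beside 240 for all exon peaks. Length was not held equal for these counts.

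The lists of keratins, histones and S100A genes held few hosts. Keratins had 5 of 13 hosts (38.5%) with 10 peaks, all with a motif site and a median fold of 130, histones 5 of 11 (45.5%) and S100A calcium-binding proteins 3 of 8 (37.5%). Histone peaks were led by the variants H2AFX (246) and H2AFZ (156), and the peaks of 246 and 228 on H2AFX overlap. The share was 17.8% (21 of 118) for the solute carriers, 13.3% (18 of 135) for the zinc finger genes named ZNF and 12.2% (5 of 41) for the RAB GTPases. The 16 kinesin genes named KIF with a pooled peak had no exon peak, and of 6 Wnt pathway hosts 1 had one, AXIN1, a scaffold of the beta-catenin destruction complex, at a fold of 3.17 and in neither line list.

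Of 14 genes that the study followed, 3 had exon peaks, with 3 peaks each and no other coding peak. Over all coding genes with a pooled peak, 17.1% had an exon peak. The paper picked these 3 as candidates partly by their RIP and acRIP signal, so an ac4C peak was a condition of their choice. HNRNPA2B1, an RNA-binding protein of splicing and transport, had folds of 23.1, 4.73 and 54.1, and its peak of 9 blocks covered 1946 bases. POU2F1, a transcription factor, had 22.6, 31.7 and 7.25, found in DLD-1, in both lines and in neither. HNRNPH3, a splicing factor, had 26.8, 2.93 and 3.35, all in DLD-1 alone. NAT10 itself (7 peaks), CTNNB1 (5), KIF23 (3), BIRC5 (3) and the other genes carried other classes of peak, except BCL2L1, which had none.

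The host genes were expressed at levels near those of the other classes. In the acRIP-table Inputs labelled SW480 and DLD-1, the median host of an exon peak had 6.63 and 6.56 FPKM, against 8.10 and 7.98 for hosts of CDS peaks and 7.80 and 7.76 for hosts of 3' UTR peaks. All coding genes of the table had 1.44 and 1.77. The hosts were shorter, with a median RefSeq gene span of 17332 bases against 28837 and 31906. Association with NAT10, as the median log2 ratio of RIP to Input FPKM (1 added to each) over the 1150 hosts with an Input of at least 1 FPKM in both lines, was 0.14 in both lines. It was 0.26 and 0.20 for hosts of CDS peaks, 0.26 and 0.15 for hosts of 3' UTR peaks and 0.18 and 0.07 over all coding genes. With Inputs exchanged between the lines it was 0.11 and 0.12 for exon hosts and 0.11 and 0.09 over all coding genes. Hosts of CDS peaks then had 0.21 and 0.19, and hosts of 3' UTR peaks 0.19 and 0.17.

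The second question was how strong and how long the peaks were. Exon peaks had a median length of 240 bases (95% interval of the median 239 to 240, interquartile range 180 to 361), from 119 to 2092. CDS peaks had 210 and 3' UTR peaks 211. The median fold of acRIP over Input was 14.6 (13.8 to 15.7, interquartile range 7.70 to 35.2), above 10.4 (9.96 to 10.9) for CDS peaks and below 15.8 (15.4 to 16.3) for 3' UTR peaks. Longer exon peaks had higher folds, with a Spearman rho of 0.60 across the 2197 peaks, and the plot of length and fold shows the exon curve beside the others.

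**Figure D1:**
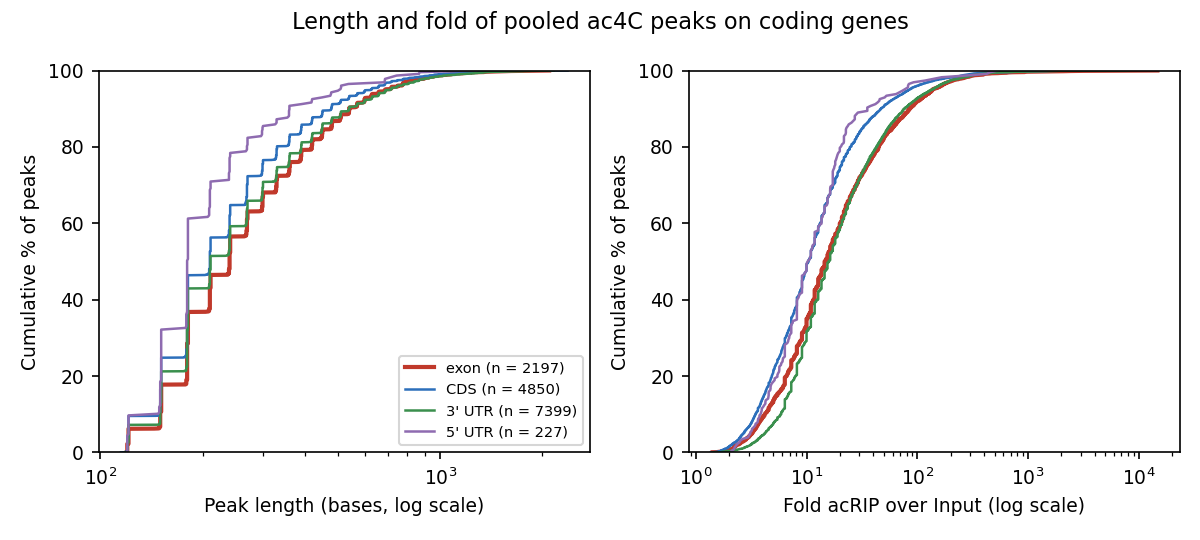
Cumulative share of pooled ac4C peaks on coding genes (vertical axes, %) by peak length in bases (left, log scale) and by fold of acRIP over Input (right, log scale), 1 curve per position class. The exon curve (n = 2197) lies right of the CDS curve in both plots, at median lengths of 240 and 210 bases and median folds of 14.6 and 10.4, and close to the 3' UTR curve (n = 7399) in fold.

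Exon peaks were listed as 1 block in 65.7% of cases, between CDS peaks (28.1%) and 3' UTR peaks (88.7%). Blocks were not compared with introns, so a peak of 1 block can still cover an intron. A further 481 exon peaks had 2 blocks, 177 had 3, 64 had 4 and 31 had 5 or more, with at most 12. Folds were over 100 in 178 peaks and under 5 in 299. Of all exon peaks, 83 (3.78%) had an FDR of at least 0.05.

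The 8 peaks of highest fold lay on 7 genes: KRT13 with 2 peaks, S100A9, RANBP1, MT1X, MT2A, KRT7 and ATP6V0B. KRT13, a type I keratin of stratified epithelia, held the peak of highest fold at chr17:41501011-41501575, 565 bases long, with 14800 in the pooled list, 13100 in the SW480 list and 2950 in the DLD-1 list. A second KRT13 peak of 6 blocks had 2430, 2340 and 341 in the same order. KRT7, a type II keratin of simple epithelia, had 1340, 10200 and 881. In each of these peaks the SW480 fold was the higher.

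S100A9, a calcium-binding protein best known from myeloid cells, had 7260, 6710 and 1230, and its Input was listed at 0 FPKM in both lines. Its peak was of class exon in the pooled and DLD-1 lists and of class CDS in the SW480 list. Input of KRT13 was also low (0.967 and 0.730 FPKM labelled SW480 and DLD-1), as was that of KRT7 (1.71 and 2.82), so these folds stand over little Input RNA. Inputs of single hosts are given from the acRIP table, and values of the RIP table can be higher or lower. There KRT13 had 1.16 and 2.62 FPKM and KRT7 1.91 and 6.29. Both KRT13 peaks overlap a peak on the other strand, as did 98 exon peaks (4.46%) and 562 other peaks on coding genes (4.50%). Whether the counting used strand is not given in the sources used here.

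Metallothioneins had 2 peaks among the 8 of highest fold. MT1X had 2100 in the pooled list, 2180 in SW480 and 175 in DLD-1, over 0.154 FPKM of Input labelled SW480 and 0 labelled DLD-1. MT2A, with a site printed above, had 2030, 5480 and 706 over 7.20 and 21.8 FPKM. In the RIP table its Inputs were 30.3 and 56.4 FPKM. The MT2A peak spanned chr16:56608553-56609497 and 13 motif sites. RANBP1, a regulator of nuclear transport, had 3200, 2640 and 946 over 39.4 and 13.8 FPKM and no motif site. ATP6V0B, a subunit of the vacuolar proton pump, had 985, 958 and 340 over 5.96 and 6.72 FPKM.

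The longest peaks were on SET (2092 bases), HNRNPA2B1 (1946), SERINC2 (1790), ACTB (1613) and FJX1 (1554). SET, an inhibitor of a protein phosphatase and a histone chaperone, had a fold of 115 and 2 motif sites, and the DLD-1 peak was as long, where the SW480 peak had 688 bases and was of class 3' UTR. ACTB, beta-actin, had a fold of 136 with 176 in SW480 and 92.3 in DLD-1, at 804 and 697 FPKM. Folds of FJX1, a secreted relative of the Drosophila four-jointed protein, were 399, 283 and 133, in 1 block with 11 sites.

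Next was asked where in the gene the peaks lay. The position of a peak centre was taken along the RefSeq gene span, introns included, for the 2167 exon peaks (98.6%) that matched a RefSeq gene. Exon peaks sat late in their genes, with a median at 88.1% of the span (interquartile range 66.3 to 96.8). CDS peaks had a median of 67.7% and 3' UTR peaks of 96.6%. The last 10% of the gene span held 46.7% of exon peaks, 20.3% of CDS peaks and 74.4% of 3' UTR peaks, and the first 10% held 2.31% of exon peaks. Within 500 bases of the 3' end lay 23.4% (21.6 to 25.2) of exon peaks, against 4.90% (4.31 to 5.55) and 32.6% (31.6 to 33.7).

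**Figure D2:**
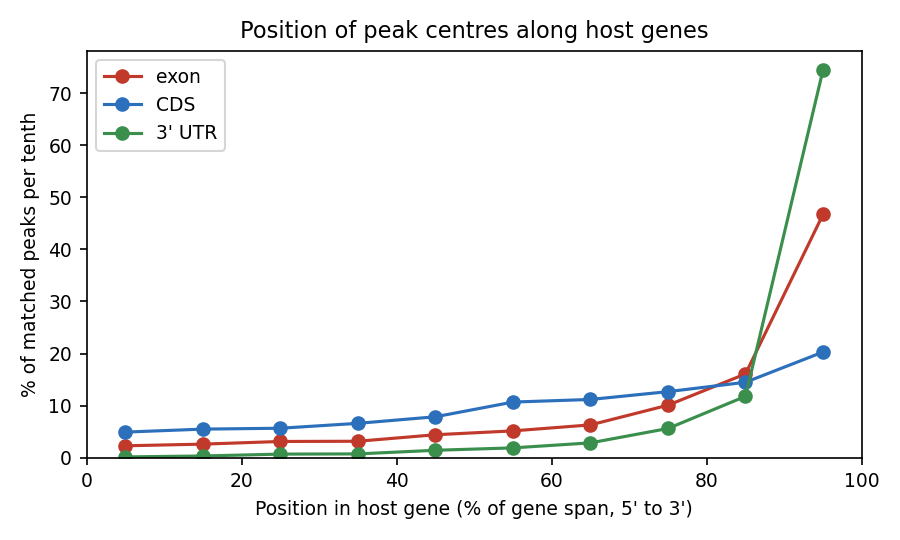
Share of matched pooled peaks (vertical axis, %) with their centre in each 10% of the host gene span from 5′ to 3′ (horizontal axis, %), 1 line per position class. Exon peaks rise to 46.7% in the last 10%, between CDS peaks at 20.3% and 3' UTR peaks at 74.4%.

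The fourth question was how many motif sites the peaks held. At least 1 site was listed in 1346 exon peaks, 61.3% (59.2 to 63.3), beside 54.1% of all pooled peaks. It was 58.6% of CDS peaks, 48.4% of 3' UTR peaks and 72.2% of 5' UTR peaks. There were 3714 sites in all, 5.56 per kilobase, against 5.37 in CDS peaks, 3.81 in 3' UTR peaks and 8.06 in 5' UTR peaks. A single site was listed in 494 exon peaks, 320 had 2, and 24 had 10 or more.

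Longer peaks have more room for sites, so shares were compared within bins of length. Up to 180 bases, 47.7% of exon peaks and 46.9% of CDS peaks had a site, a difference of 0.8 points (95% Newcombe interval -3.8 to 5.3). In the longer bins the differences were -2.9 (-8.0 to 2.2), 0.3 (-4.9 to 5.4) and 0.3 (-3.8 to 4.2) points, so the intervals of all 4 bins hold 0. Against 3' UTR peaks the exon share was higher in each bin, by 16.7 (12.4 to 21.0), 11.9 (7.0 to 16.7), 7.1 (2.1 to 11.9) and 8.5 (4.7 to 12.1) points.

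**Figure D3:**
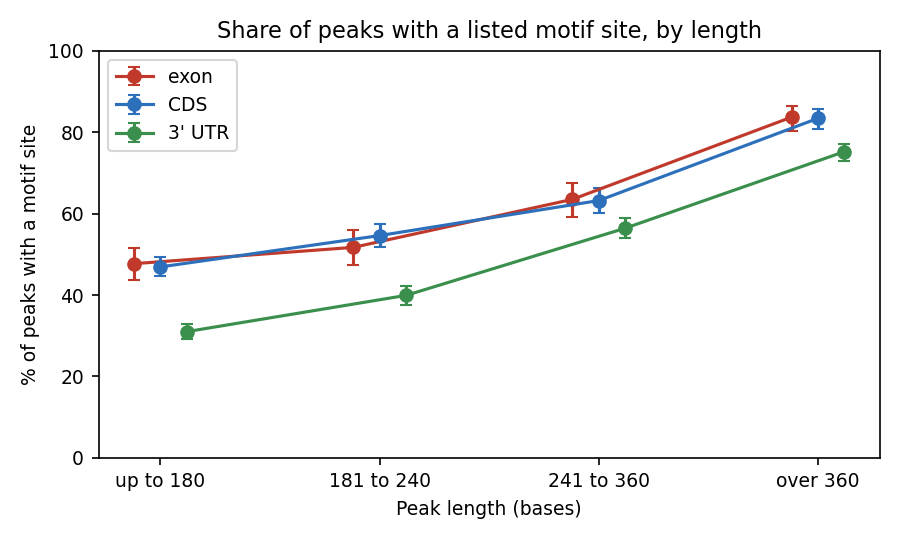
Share of pooled peaks with at least 1 listed motif site (vertical axis, %) in 4 bins of peak length (horizontal axis, bases) for exon, CDS and 3' UTR peaks. Points are shares and bars 95% Wilson intervals, and the exon points lie with the CDS points, from 47.7% in the shortest to 83.7% in the longest bin, above the 3' UTR points of 31.0% and 75.2%.

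The most sites were in SERINC2, a membrane protein of serine incorporation, with 35 in 1790 bases. Its fold was 112 in the pooled list, 568 in SW480 and 18.5 in DLD-1, over 15.2 and 40.4 FPKM of Input. RNF126, a ubiquitin ligase, had 18 sites, OTUB1, a deubiquitinase, 16, USB1, an exonuclease of U6 RNA, 14, and GIPC1, a scaffold protein, 13. These peaks ranged in pooled fold from 19.2 (OTUB1) to 112.

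Sites were densest in USB1, with 38.8 per kilobase, and in NDUFS7, a subunit of respiratory complex I, with 37.5. KCNG1, a potassium channel subunit, and MIB2, a ubiquitin ligase, had 33.3 each, and HSF1, the transcription factor of the heat shock response, 33.1. A dense run of sites did not go with a high fold in each of these peaks, since NDUFS7 had a pooled fold of 10.6, KCNG1 4.53 and HSF1 2.38, while USB1 had 48.9 and MIB2 26.0. At the other end, 851 exon peaks (38.7%) had no site, among them RANBP1 at a fold of 3200.

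The fifth question was which exon peaks were also called in each line. A pooled peak counted as present if at least 1 base was shared with a peak of that line on the same strand. Present in SW480 were 1298 exon peaks, 59.1% (57.0 to 61.1), beside 52.9% of all pooled peaks, and in DLD-1 1689, 76.9% (75.1 to 78.6), beside 73.7%. In both lists were 875 (39.8%, all pooled peaks 32.1%), in SW480 alone 423 (19.3%, all 20.8%), in DLD-1 alone 814 (37.1%, all 41.6%) and in neither 85 (3.87%, all 5.52%). The DLD-1 list is the longer, with 13964 peaks against 9536.

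Exon peaks were found in SW480 more than CDS peaks, by 21.5 points (19.0 to 23.9), and in DLD-1 less, by -4.8 points (-6.9 to -2.8). Against 3' UTR peaks the SW480 difference was -1.6 points (-3.9 to 0.7), an interval that holds 0, and the DLD-1 difference 7.3 points (5.2 to 9.3). The excess over CDS in SW480 was present in each of the 4 length bins, at 11.2, 20.1, 22.2 and 18.8 points. Fold was not held equal. Median folds of exon and CDS peaks in these bins were 8.15 and 7.25, 12.7 and 9.96, 20.1 and 14.0, and 44.4 and 28.4. The DLD-1 difference from 3' UTR peaks was 8.7, 11.2 and 4.2 points in the 3 shorter bins and -1.6 (-3.9 to 0.3) over 360 bases. The SW480 difference from 3' UTR peaks was -4.5 (-8.6 to -0.2) up to 180 bases, and in the longer bins its interval held 0.

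**Figure D4:**
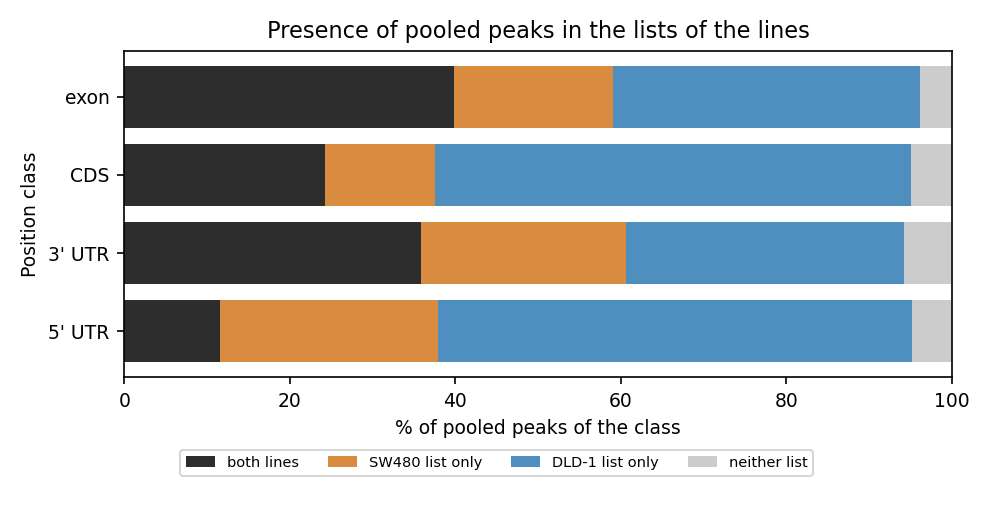
Share of pooled peaks (horizontal axis, %) found in both line lists, in the SW480 list alone, in the DLD-1 list alone or in neither, for each position class on coding genes (vertical axis). Exon peaks have the widest segment of peaks in both lines, 39.8%, against 24.2% for CDS, 35.9% for 3' UTR and 11.5% for 5' UTR peaks. Peak length was not held equal for these shares, and exon peaks had the highest median length.

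The peaks that matched mostly carried the same label, in lists drawn from the same libraries. The line peak that an exon peak overlapped was also of class exon in 1278 of 1298 cases (98.5%) in SW480 and in 1670 of 1689 (98.9%) in DLD-1, and on the same host in 1295 and 1687. Taken by themselves, the line lists held 1480 exon peaks on coding genes in SW480 (15.5% of that list, on 1039 hosts) and 2004 in DLD-1 (14.4%, on 1152 hosts). Of these hosts 773 were in both lists, 74.4% of the SW480 hosts and 67.1% of the DLD-1 hosts.

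Presence in both lines went with longer and stronger peaks. The pooled folds and the line lists come from the same libraries, and a longer peak has more room to touch a line peak. Some link of presence with pooled fold and length is therefore built into the measures, and its size was not tested. The values below describe the lists only. Exon peaks in both lists had a median length of 386 bases and a median pooled fold of 33.9, those in SW480 alone 181 and 12.7, those in DLD-1 alone 181 and 10.4, and those in neither 150 and 7.25. In the quartile of highest fold (35.3 and above) 77.0% were in both lists, and in the quartile of lowest fold (up to 7.70) 17.8%. A motif site was listed in 74.3% (71.3 to 77.1) of those in both lists, 56.0% (51.3 to 60.7) of those in SW480 alone, 52.1% (48.7 to 55.5) of those in DLD-1 alone and 41.2% (31.3 to 51.8) of those in neither. Site density differed less, at 5.95, 5.54, 4.82 and 4.52 per kilobase.

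Among the 875 peaks in both lists the fold was higher in SW480 for 506 and in DLD-1 for 369. Medians were 34.4 and 25.2, the median log2 ratio of SW480 to DLD-1 fold was 0.39, and Spearman's rho across peaks was 0.40. The median log2 ratio was -0.06 over the 1175 CDS peaks in both lists and 0.41 over the 2659 3' UTR peaks. The 5 exon peaks with the highest smaller fold of the lines were those of KRT13, S100A9, RANBP1, KRT7 and MT2A described above, all higher in SW480.

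**Figure D5:**
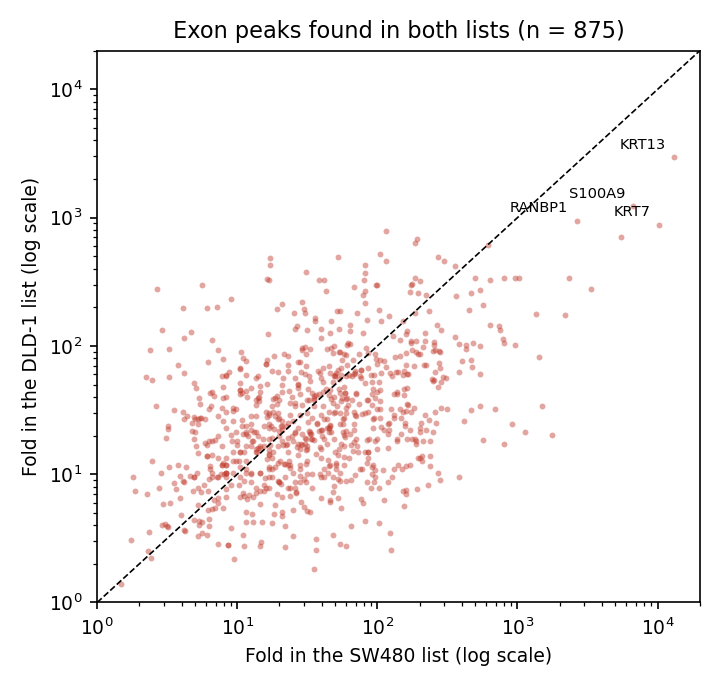
Fold of acRIP over Input in the SW480 list (horizontal axis, log scale) and in the DLD-1 list (vertical axis, log scale) for the 875 exon peaks found in both, 1 point per peak, with the line of equal folds dashed. More points lie below the line (506) than above it (369), and KRT13, S100A9, RANBP1 and KRT7 lie far to the right.

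Peaks in the SW480 list alone were led by CDKN2A, which encodes the cell cycle inhibitor p16. Its peak at chr9:21970970-21971388 had a fold of 437 in the pooled list and 52.0 in SW480. Input of CDKN2A was 0.105 FPKM labelled SW480 and 5.94 labelled DLD-1, and 0.267 and 24.5 in the RIP table. So by the labels the peak was listed in the line with less of its RNA. With the Input labels exchanged it would be in the line with more. Next came RCE1 (197 in the pooled list and 222 in SW480), RAB26, a GTPase of vesicle traffic (183 and 206), SLC39A4, a zinc importer (173 and 169), and the readthrough gene JMJD7-PLA2G4B (169 and 187). Inputs labelled SW480 and DLD-1 were 3.25 and 3.24 FPKM for RCE1 and 3.21 and 2.19 for RAB26. They were 4.98 and 4.52 for SLC39A4 and 0.462 and 0.423 for JMJD7-PLA2G4B.

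Peaks in the DLD-1 list alone were led by a second peak of SSRP1, with a pooled fold of 153 and 199 in DLD-1. The proteasome subunits PSMC5 (134 and 150) and PSMD14 (116 and 95.2) followed, and then LRWD1, a protein of the origin recognition complex (96.9 and 81.0), and PPA1, a pyrophosphatase (95.1 and 97.5). The peak of PSMC5 covered 1168 bases in 4 blocks. Of the 85 peaks in neither list the highest pooled fold was 19.0, on THOC1, a subunit of the mRNA export complex THO, followed by DDX27, MED16 and MPV17L2 at 17.2 and P3H3 at 15.4.

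Presence in 1 list was also set beside the Input levels of the hosts. Of the 141 exon peaks whose host had at least 2-fold more Input labelled DLD-1 in the acRIP table, 48 (34.0%) were in SW480 alone and 36 (25.5%) in DLD-1 alone, where all exon peaks had 19.3% and 37.1%. KCNG1 was among them, with 0 and 5.00 FPKM of Input labelled SW480 and DLD-1 and a peak in the SW480 list alone. Of the 121 with at least 2-fold more Input labelled SW480, 17 (14.0%) were in SW480 alone and 45 (37.2%) in DLD-1 alone, the latter near the share of all exon peaks. So the shares moved towards the SW480 list where Input labelled DLD-1 was higher, and on the other side the share in SW480 alone was lower. The Inputs of the RIP table gave 52 (33.1%) and 46 (29.3%) of 157, and 16 (14.3%) and 49 (43.8%) of 112. Over all pooled peaks, with 20.8% in SW480 alone and 41.6% in DLD-1 alone, the shares were 29.5% and 34.7% of 1175 on the first side and 18.7% and 43.1% of 1109 on the second. The acRIP folds are taken over Input, and the part of the Input level or of the labels in these counts was not tested.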

How the data were processed

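RNA of SW480 and DLD-1 was measured in 6 libraries (Input, NAT10 RIP and acRIP in each line), grouped by their titles. A sequencing provider processed the reads. The submitters' processing notes name cutadapt 2.5, HISAT2 2.1.0 and GRCh38, and the peak caller is not given in the sources used here. The authors deposited 3 peak lists, 1 per line and 1 pooled, with a p-value, log10 scores of p and FDR, the fold of acRIP over Input (a ratio), blocks, position class, host and a count of motif sites. The FDR score is a spreadsheet error in 186 exon peaks, all with a p-value of 0, and was taken as below 0.05. The deposited FPKM tables give RIP and Input, and the unit of the acRIP-table Inputs is not named and was read as FPKM. Ratios of RIP to Input and their means, computed by the authors, were not used.

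Here peaks were selected by class and host type, starts were moved by 1 base to count from 1, and length is the sum of blocks. Peaks were shared at 1 base on the same strand, block by block, and a peak of several matches took the longest overlap. Genes were matched to RefSeq GRCh38.p14 by symbol or synonym. Listed motif sites were checked against RefSeq promoter windows: the pattern stood at 130 of 130 plus-strand and 89 of 97 minus-strand sites. Shares have 95% Wilson intervals, differences Newcombe intervals and medians order-statistic intervals, computed with Python 3.11.15, numpy 2.4.6, pandas 2.3.3 and scipy 1.17.1, and the functions were tested on simulated data.

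Named peaks were the 8 of highest fold, the 5 longest, the 5 with most and the 5 with densest sites (of those with at least 3), the 5 highest smaller folds of both lines, the 5 of highest fold in each other pattern of presence, the 5 hosts with most peaks, 14 genes of the study and the 3 of highest fold per family. The printed sequences, the marker genes and the Input contrast were chosen after values were seen. The peaks and lists were chosen with earlier results of these data known. Alternatives were the p-value and FDR threshold, the overlap rule, the pseudocount, the Input filter and the Input label.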

Additional observations from a re-analysis of the deposited data

How the results depend on the processing

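Of 37 alternatives to the values above, 26 moved a value by less than its interval, or a count by less than 1.5 times, and 11 moved it further. They are counts, shares and medians of exon peaks and their hosts, and no difference between classes was recomputed. Peaks with a p-value at or below the median of the pooled list numbered 1308, of which 74.6% were in SW480, 87.2% in DLD-1 and 70.2% had a motif site, with a median length of 329 bases and a median fold of 27.2. At an FDR below 0.05, 78.9% were in DLD-1. With at least 50% of both peaks shared, presence was 53.0% in SW480 and 70.5% in DLD-1. With 1 peak per host, the one of highest fold, 63.6% had a motif site and 69.7% were in SW480, an alternative chosen after seeing the data. In each of these the setting keeps fewer peaks or asks for more overlap. Counting motif sites in a genome sequence was not run, since no genome was used here. No paired analysis was possible because each group held 1 library. Depth of the acRIP libraries is unknown, so a peak missing from a line list may lie below its detection, and with no replicates the spread between libraries is unknown.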
